A study of Sus scrofa with 2 samples.

Results

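The leukocyte receptor region examined here is a stretch of pig chromosome 6, from 55700001 to 58800000 on Sscrofa11.1, that held 11 of the 36 autosomal loops whose anchors lay over 2 Mb apart. Its 6 listed genes, NKG7, OSCAR, TARM1, CLDND2, VSIG10L and ETFB, and its bounds were chosen by these loops, so the number, length and contacts of the loops are given as a description and carry no test. The stretch held 18 loops in all, of 3410 in the series, and 3 of the 1927 listed domains. Of the 105 protein-coding genes that overlapped it, 32 had at least 1 of their annotated ends inside an anchor, against 17.8% of autosomal protein-coding genes, a share from which nothing is read since loops chose the stretch. Over the autosomes 36 of 3261 loops, or 1.1%, spanned over 2 Mb. Each loop counted here is a listed pixel of 25 kb. Joined where they touch, the 11 long ones of the stretch formed 5 groups, and the other 25 formed 21.

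The data came from in situ Hi-C, in which pieces of DNA that are neighbours in the fixed nucleus are ligated and sequenced as pairs, run on spleen tissue of pigs (Sus scrofa) in 2 biological replicates. The labels name no breed, sex, age or treatment, there was no second group, and spleen is a mixture of B cells, T cells, macrophages, red cells and stroma that this assay does not separate. The loop and domain lists cover the series and not a replicate, so no value per replicate and no spread between replicates could be given. The observed and expected contacts and FDR values of each loop are those of the authors' deposited table, and their ratios and medians were computed from them. The intervals below are 95% exact Poisson intervals on the observed contacts, and they cover counting error only.

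A chromatin loop is a pair of loci that contact each other more often than their surroundings do, often where cohesin is halted by CTCF bound at both ends, and contacts generally become rarer as the distance along the chromosome grows. The region belongs to a part of the mammalian genome rich in receptors of immune cells. The Siglec genes code for receptors that bind sialic acid on other cells, and the leukocyte receptor complex codes for immunoglobulin-like receptors that activate or restrain myeloid and natural killer cells. Kallikreins, a family of secreted proteases, and arrays of zinc finger genes lie beside them.

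The listed genes lay at opposite ends of the stretch. On the left, OSCAR (56021434 to 56029398) codes for an immunoglobulin-like receptor of osteoclasts and myeloid cells, and TARM1 (56038524 to 56051487) for an activating receptor of myeloid cells. On the right, NKG7 (58496089 to 58497827) codes for a membrane protein of the cytotoxic granules of natural killer and T cells. It was followed by CLDND2 (58499702 to 58501179), a claudin-like membrane protein, ETFB (58501892 to 58517580), a subunit of the mitochondrial flavoprotein that takes electrons from fatty acid oxidation, and VSIG10L (58519500 to 58532363), an immunoglobulin-domain protein. No other gene of the table separated NKG7 from VSIG10L, so these 4 genes shared 3 adjoining anchors of 25 kb, and OSCAR and TARM1 shared another. The loops of neighbouring genes below are therefore in part the same loops, counted once per gene.

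**Figure D1:**
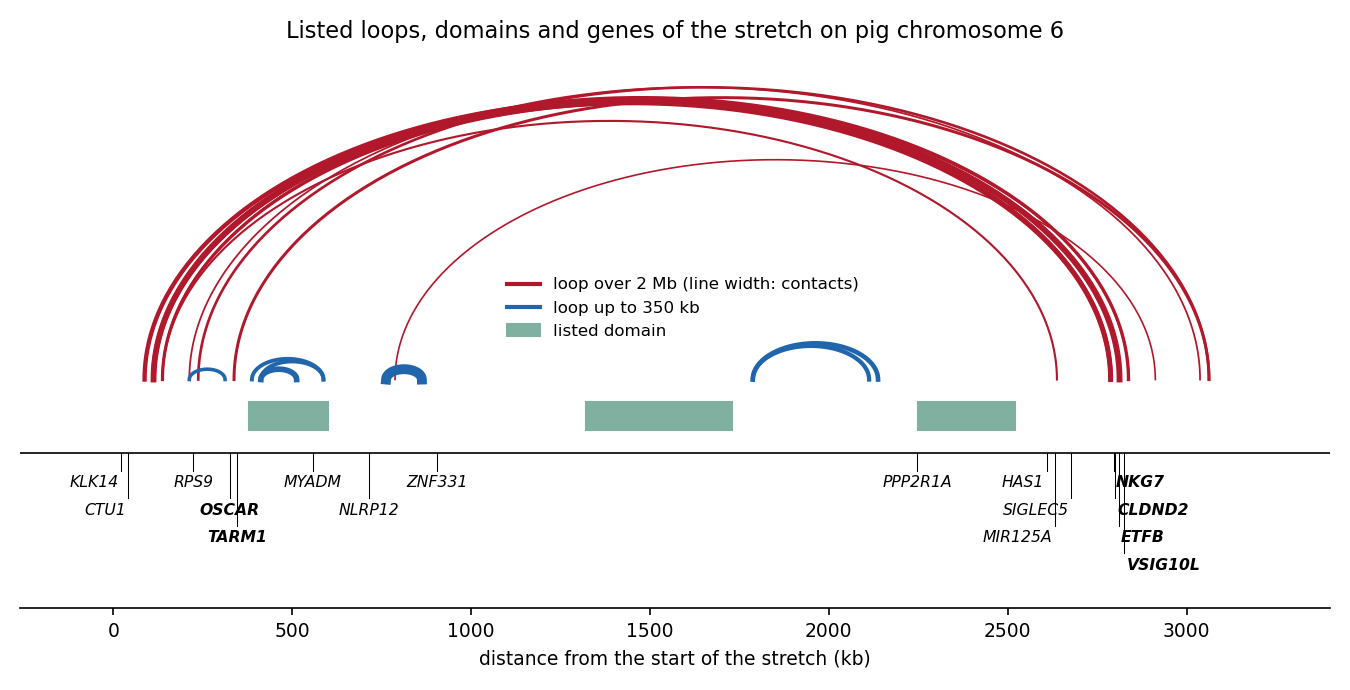
Map of the stretch, with the distance from its start in kb on the horizontal axis, the 18 listed loops as arcs (over 2 Mb apart in red, up to 350 kb in blue, line width by observed contacts), the 3 listed domains as green bars and selected genes below the line, listed genes in bold. The 11 red arcs start in the left part of the stretch and reach its right end, and 10 of them pass over all 3 domains.

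Among the loops over 2 Mb, the one with the most contacts joined the block of CLDND2, ETFB and VSIG10L to a bin without a protein-coding gene end. That bin held a lncRNA gene. Between the bin from 55800001 to 55825000 and the bin from 58500001 to 58525000, 2700 kb apart, 138 contacts were observed (115.94 to 163.04), against 23.7 expected from the donut, a ring of pixels at some distance around it. This was the highest observed count among the 36 autosomal loops over 2 Mb, and 5.82 times (4.89 to 6.87) its expectation. The FDR, the q-value listed by the authors' caller, was 0 against the donut and against the lower-left neighbourhood, 3.68e-28 against the horizontal and 7.36e-29 against the vertical neighbourhood. The pixel touched 5 other listed pixels, and these 6 formed a single group with 500 observed contacts.

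NKG7 had an end in the next bin to the left, from 58475001 to 58500000, with LIM2, which codes for a membrane protein of the lens, C6H19orf84 and an end of CLDND2. The bin had 2 loops, both of the same group. With the bin from 55800001 to 55825000 it had 114 contacts (94.0 to 136.95) against 36.8 expected, a ratio of 3.098 (2.56 to 3.72). With the bin from 55775001 to 55800000 it had 95 contacts (76.9 to 116.13) against 47.2 expected, a ratio of 2.01 (1.63 to 2.46). The observed counts ranked 2 and 5 among the 36 loops, while the ratio of 2.01 was the lowest of the 36. Their largest FDR values were 0.0146 and 0.0189, both against the horizontal neighbourhood.

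CLDND2 straddled the border between these bins, with an end on each side, and so had 4 loops, from 62 to 138 contacts. The loops it shared with ETFB and VSIG10L had ratios of 5.82 and 6.96, against 2.01 and 3.098 for those it shared with NKG7. Against the donut and the horizontal neighbourhood the intervals of the former lay above those of the latter, which is a description and no test. This did not hold for every neighbourhood. Against the vertical one the pixel with 114 contacts had a ratio of 3.32 (2.73 to 3.98) and that with 138 contacts 4.003 (3.36 to 4.73), and against the lower-left one they had 6.14 (5.06 to 7.37) and 8.05 (6.77 to 9.52), so both pairs of intervals overlapped.

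ETFB lay wholly in the bin from 58500001 to 58525000 and had the 2 loops of that bin. The weaker of them led to the bin from 55825001 to 55850000, with 62 contacts (47.5 to 79.5) against 8.91 expected, a ratio of 6.96 (5.34 to 8.92). All 4 FDR values of both ETFB loops were at most 1.10e-13. Among the 6 listed genes, the highest FDR over a gene's long loops was lowest for ETFB.

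VSIG10L had an end in that bin and another in the bin from 58525001 to 58550000, and had 4 loops of 2675 to 2725 kb. The 2 that it did not share with ETFB had 66 contacts (51.0 to 84.0) against 11.3 expected and 25 (16.2 to 36.9) against 4.21 expected. Their ratios, 5.83 and 5.93, were close to the 5.82 and 6.96 of the shared loops, although the observed counts ran from 25 to 138. The highest FDR among the 4 loops of VSIG10L was 0.000484.

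OSCAR and TARM1 shared a single long loop, from the bin at 56025001 to 56050000 to the bin at 58750001 to 58775000. It spanned 2725 kb and had 56 contacts (42.3 to 72.7) against 21.4 expected, a ratio of 2.62 (1.98 to 3.40). Its FDR was 0.000358 against the donut and 0.0556 against the vertical neighbourhood. It touched no other listed pixel, and its right anchor held ends of only unnamed protein-coding loci. OSCAR also had an end in the anchor of a short loop, described below, and TARM1 had no other loop.

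The listed genes at the right end were thus not partners of OSCAR and TARM1. The 6 pixels at NKG7, CLDND2, ETFB and VSIG10L all led to bins between 55775001 and 55850000, to the left of RPS9 and OSCAR. The bins of RPS9, OSCAR and TARM1 led past VSIG10L, to bins between 58725001 and 58775000. No listed loop joined an anchor of OSCAR or TARM1 to one of the other 4 genes.

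**Figure D2:**
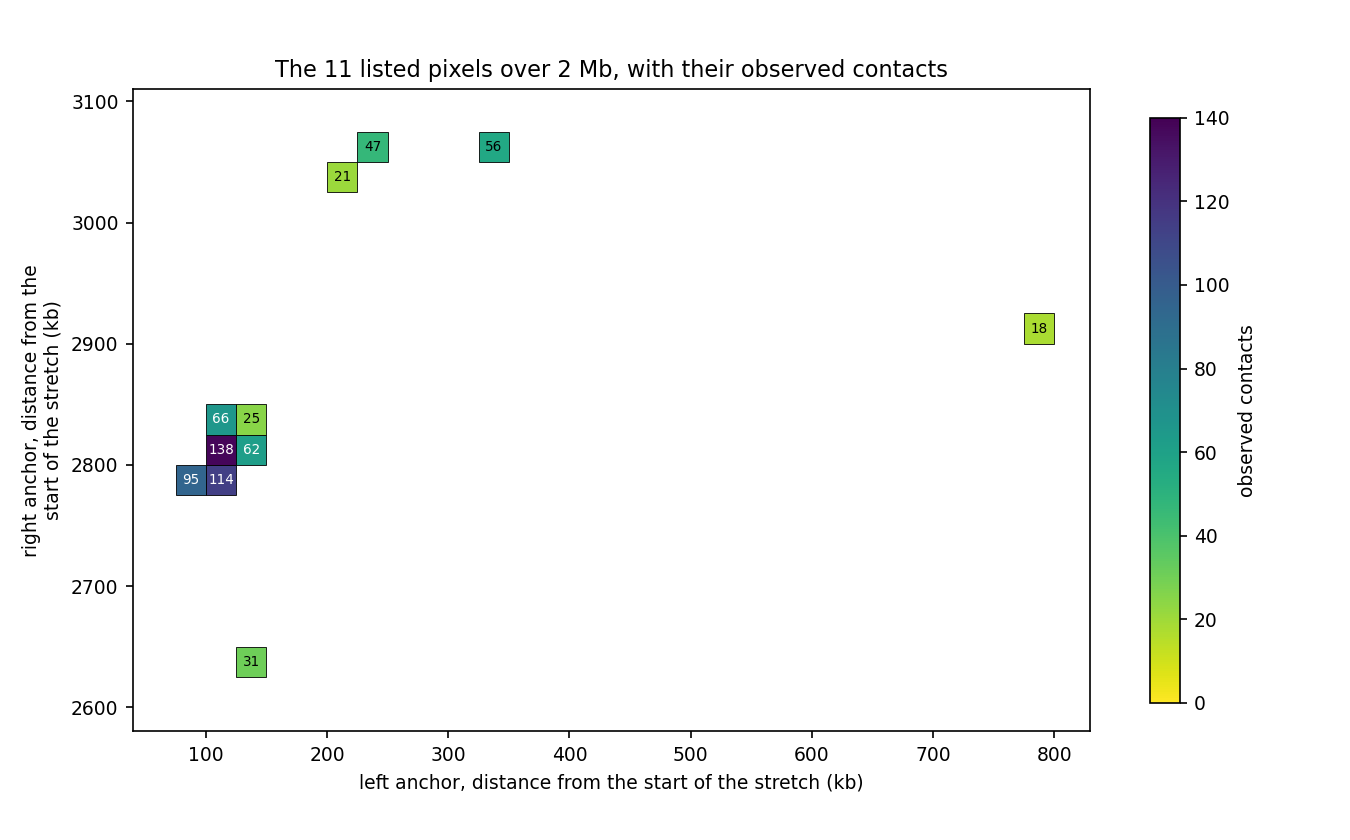
Each square is a listed pixel of 25 kb over 2 Mb from the diagonal, placed by its left anchor (horizontal axis) and right anchor (vertical axis), both in kb from the start of the stretch, with the observed contacts written in it and shown by colour. The group of 6 touching pixels at the lower left holds 25 to 138 contacts, and the pixels of RPS9 and of OSCAR and TARM1 lie above it with 21 to 56.

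The other 4 long loops had 18 to 47 contacts. RPS9, which codes for a protein of the small ribosomal subunit, had 2 of them, with 21 and 47 contacts, in touching pixels that reached the same far bin as OSCAR and the bin beside it. The stronger was shared with TSEN34, a subunit of the endonuclease that splices tRNA, and MBOAT7, an acyltransferase of inositol phospholipids. Its FDR was 0.078 against the horizontal neighbourhood, the highest among the 11 loops.

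At 2500 kb, another pixel linked the bin from 55825001 to 55850000 with that from 58325001 to 58350000, where the genes MIR125A, MIRLET7E and MIR99B lay. These code for a cluster of miRNAs found in blood stem cells. The loop had 31 contacts (21.1 to 44.0) against 8.28 expected, a ratio of 3.74 (2.54 to 5.31), and its highest FDR was 0.0531. This was the only long loop of the stretch with a miRNA gene at an anchor.

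The shortest of the 11, at 2125 kb, joined bins at 56475001 and 58600001 that held 1 unnamed protein-coding locus and 1 pseudogene. It had the fewest contacts, 18 (10.7 to 28.4), and with 1.29 expected the highest ratio, 14.0 (8.29 to 22.1). Just under the 2 Mb limit, autosomal loops of 1950 kb on chromosomes 15 and 10 had 10 and 38 contacts, and just over it a loop of 2025 kb on chromosome 1 had 17, the next being this one. Over all 11 loops, 14 bins served as anchors, 8 of them with a single long loop.

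The surroundings of these loops held many contacts for their distance. Over the 11 loops the expected contacts had a median of 11.3 and ran from 1.29 to 47.2. Over the other 25 autosomal loops over 2 Mb the median was 2.48 and the highest value 8.76. The 7 highest expectations of the 36 were all in this stretch. Since the members were chosen from the same list, this is a description and was not tested.

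Loops of like distance had lower expectations. The 6 other autosomal loops of 2 to 3 Mb, which spanned 2025 to 2975 kb, had 2.34 to 5.91 expected contacts, and 8 of the 11 loops of the stretch had more than 8. The loop of NKG7 with 47.2 expected contacts lay at the level of much shorter loops, as the 215 autosomal loops that were 225 kb apart had a median of 47.3. The 36.8 of its other loop was nearest to the 35.1 of the 22 loops at 500 kb. The remaining 9, except the 23.7 of the pixel with 138 contacts, were below the median at every distance that had 20 or more loops.

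**Figure D3:**
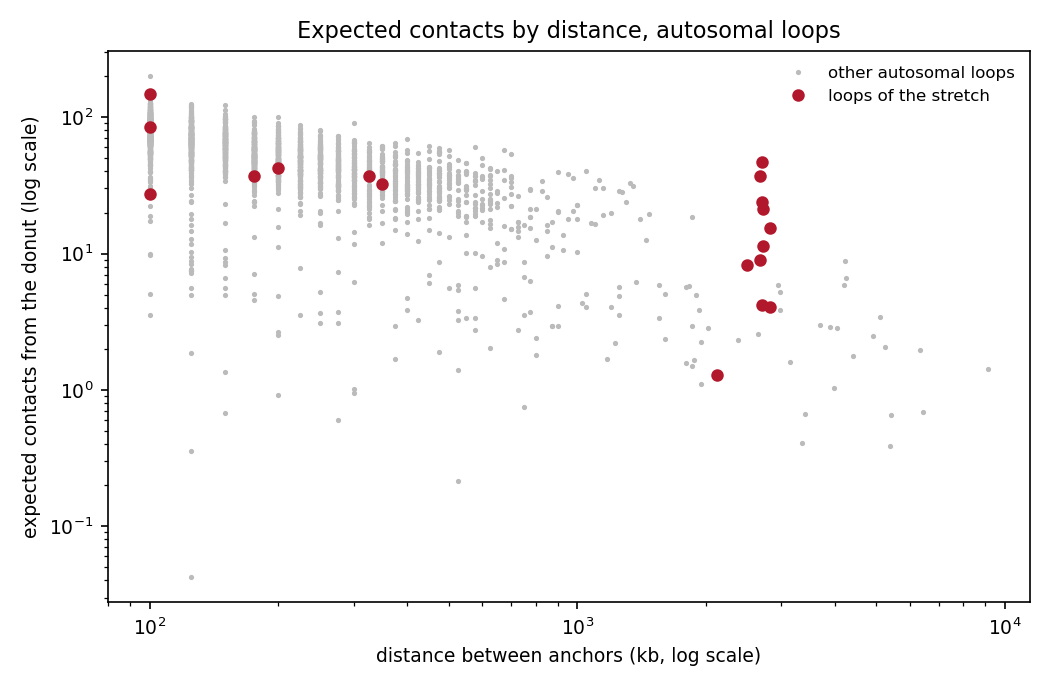
Each point is an autosomal loop, with the distance between its anchors in kb on the horizontal axis and the contacts expected from the donut around it on the vertical axis, both on log scales; grey points are loops elsewhere and red points the 18 loops of the stretch. The red points over 2 Mb reach 47.2 expected contacts, where the grey points over 2 Mb stay at or under 8.76.

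The long loops of the stretch had lower ratios and more contacts than the other long loops, which was not tested. Observed over expected contacts had a median of 5.16 there, from 2.01 to 14.0, against 10.8, from 5.20 to 122, for the other 25. Those 25 lay further apart, with a median span of 4050 kb against 2700 kb. The 6 of them at 2 to 3 Mb had a median ratio of 6.76, from 5.95 to 17.1, nearer to that of the stretch. Observed contacts had a median of 56 in the stretch, against 22 in the other 25 and 24.5 in those 6. The excess over the lower-left, horizontal and vertical neighbourhoods had medians of 6.85, 2.88 and 4.003. All 4 FDR values were at most 0.05 in 8 of the 11 loops, against 77.5% of all autosomal loops and 22 of the other 25 long ones.

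The surroundings were also uneven. The lower-left neighbourhood of a pixel holds the pixels nearer to the diagonal, that is, between its anchors. In the 3 loops of the bin from 55825001 to 55850000 the lower-left expectation was 0.475 to 1.08 contacts, while the donut gave 4.21 to 8.91. The ratio of these values was 0.105 to 0.121. A ratio under 0.5 was found in these 3 of the 11 loops, in 1.29% of autosomal loops and in none of the other 25 over 2 Mb, whose lowest was 0.611. The NKG7 loop with 114 contacts lay just above that cut, at 0.505. The loop of 2125 kb had 0.605, so both were also under 0.611.

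The order was turned in the 2 loops of RPS9, whose left anchors lay further right in the same left part of the stretch. Their lower-left expectation was above that of the donut, at 6.18 against 4.07 and 20.6 against 15.4. The loop of OSCAR and TARM1 had 18.6 against 21.4. By these values, the surroundings of the 3 loops at 55825001 were emptier towards the inside of the stretch, and those of the RPS9 loops were not.

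**Figure D4:**
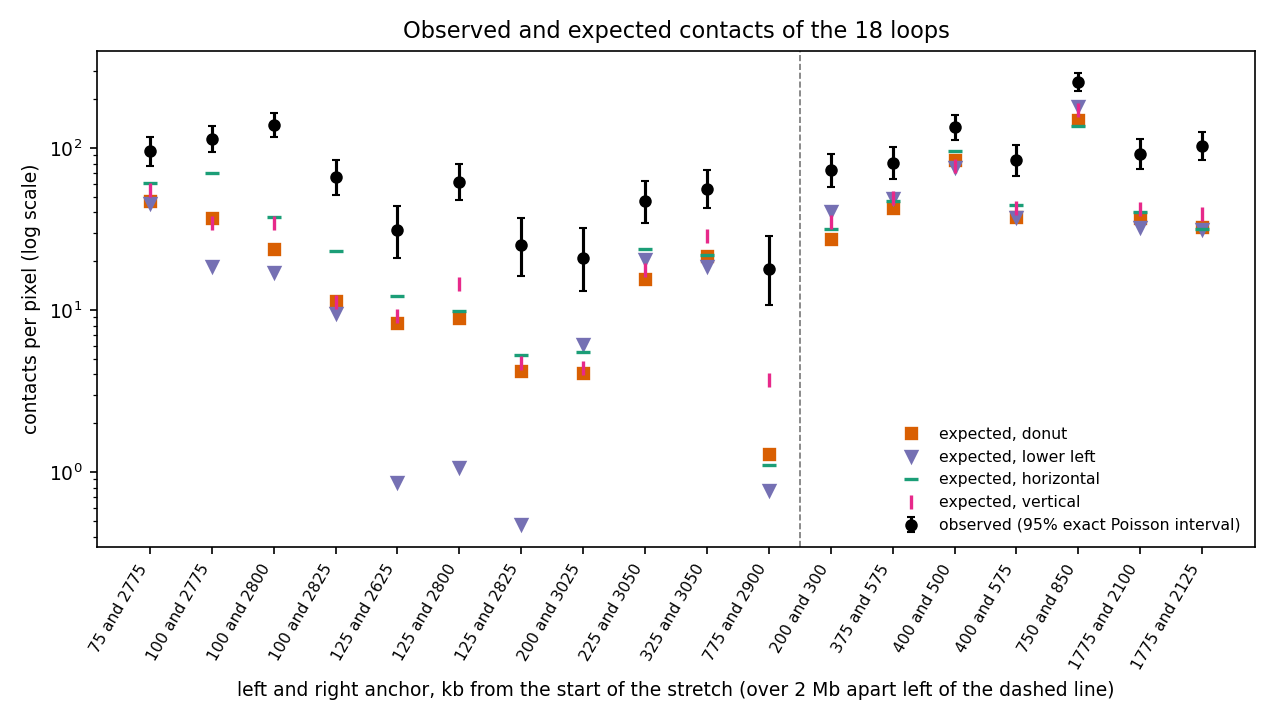
Observed contacts (black points, bars are 95% exact Poisson intervals) and the contacts expected from 4 neighbourhoods (coloured marks) for the 18 loops, on a log scale; loops are named by the distance of their anchors from the start of the stretch in kb, and those left of the dashed line span over 2 Mb. In the 3 loops of the bin at 125 kb the lower-left mark falls to 0.475 to 1.08, well below the other marks, and in the short loops the 4 marks lie close together.

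The order of the genes around these pairs is given as a description. In the RefSeq table, the kallikrein gene KLK14 came before CTU1, a tRNA-modifying enzyme that ended at 55745743. CEACAM18, RPS9, OSCAR, TARM1, MYADM, NLRP12 and ZNF331 followed. Further right came PPP2R1A, HAS1, SIGLEC14, SIGLEC5, LIM2, NKG7, CLDND2, ETFB and VSIG10L, and beyond the stretch CDC42EP5, LENG9 and LENG8, which ended at 58871138. In the human genome, whose order is quoted from outside these data, the genes named here from VSIG10L to RPS9 run in the reverse order. There CTU1 is on the side of the Siglec genes and NKG7, and RPS9 on the side of LENG8. The place of CEACAM18 and the gene order within the flanks were not compared, so a single reversed block is not claimed. Of the 11 long loops, 10 joined the CTU1 side to the side of HAS1 and NKG7, or RPS9, OSCAR and TARM1 to the LENG8 side. The exception was the loop of 2125 kb. These sides were set with the loops known, and 6 of the 10 loops were touching pixels of a single group. The count therefore carries no test, and whether gene order bears on these loops was not tested. Distances here are those of the assembly, and whether the sampled pigs carry its order was not tested.

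Near the listed genes, short loops were few. The anchor of RPS9 from 55900001 to 55925000 was 100 kb from the bin from 56000001 to 56025000, which held ends of OSCAR, PRPF31, a splicing factor, TFPT and NDUFA3, a subunit of respiratory complex I. That loop had 73 contacts (57.2 to 91.8) against 27.3 expected, a ratio of 2.67, and the highest FDR among the short loops, 0.0842 against the lower-left neighbourhood. Its left bin was the only one of 24 anchors with both a long and a short loop. NKG7, CLDND2, ETFB and VSIG10L had no short loop.

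The other 6 short loops spanned 100 to 350 kb. Within the domain of 220 kb from 56080001 to 56300000, 2 touching pixels reached the bin from 56275001 to 56300000, which held an end of MYADM, a membrane protein of myeloid cells. They had 81 and 84 contacts and ratios of 1.902 and 2.26, and the left anchor of the second held an end of CACNG6, which codes for a calcium channel subunit. A loop of 100 kb with an end of the homeobox gene DPRX had the most contacts of the stretch, 255 (224.66 to 288.3), against 147.93 expected. A pair of touching pixels between 57475001 and 57850000, over pseudogenes, had 92 and 103 contacts and ratios of 2.50 and 3.17.

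Over the 7 short loops the ratio ran from 1.58 to 3.17, with a median of 2.26, and over all autosomal loops the median was 2.001. The lower-left expectation of the short loops was 0.879 to 1.498 times that of the donut, as against 0.105 to 1.52 in the long ones. By these values the short loops were close to the rest of the autosomes, and the long loops had the wider spread.

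The domains left both ends of the stretch bare. The listed ones ran from 56080001 to 56300000, from 57020001 to 57430000 and from 57950001 to 58220000, with lengths of 220, 410 and 270 kb, and covered 29% of the stretch. The second and the third had no loop inside, and the last held the zinc finger genes ZNF615, ZNF614 and ZNF432, with an end of PPP2R1A, the scaffold subunit of protein phosphatase 2A, at its left edge. The nearest domains outside ended at 54720000 and started at 59460001.

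None of the 6 listed genes lay in a domain. Of the 14 anchors of the long loops, 0 were within 20 kb of a domain edge, against 44.7% of autosomal anchors, and their distances ran from 30 to 530 kb. The bins of NKG7, CLDND2, ETFB and VSIG10L were 255 to 305 kb from the nearest edge. The bin of OSCAR and TARM1 was the nearest, at 30 kb from the domain that holds MYADM. Of the 11 anchors of short loops, 3 were within 20 kb of an edge.

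All 6 listed genes reached an anchor of a loop over 2 Mb, as the choice of members fixed, against 0.272% of autosomal protein-coding genes. With them, 20 protein-coding genes had such an end, 9 of which the table lists without a gene name, and so had 4 lncRNA genes, 3 miRNA genes and 2 pseudogenes. Outside the stretch 31 protein-coding genes did, 4 of them with 2 or more such loops, against 11 in the stretch. These counts take touching pixels as separate loops.

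By gene group, the named genes at anchors were parts of the region only. Of 23 listed receptor entries of the complex 6 matched a symbol or synonym, and of 12 Siglec entries 3. Of the 105 protein-coding genes of the stretch, 68 had no gene name. Which receptor families the anchors held or missed therefore cannot be read from these lists. Of 6 immunoglobulin-like receptor genes of the leukocyte receptor complex that matched the table, the 2 in the stretch, OSCAR and TARM1, were at anchors of long loops. The other 4, KIR2DL1, FCAR, NCR1 and GP6, lay to the right of the stretch and had no loop. Of 25 genes that flank the complex, 14 lay in the stretch, 10 of these at an anchor and 3 at one of a long loop, in a stretch chosen for its loops. SIGLEC5, SIGLEC14, KLK13, KLK14 and NLRP12 were in the stretch and at no anchor. Of 20 genes of natural killer cells and cytotoxic granules over the genome, 7 had an end in an anchor, among them KLRB1, CD247 and FCER1G, where 17.8% of autosomal protein-coding genes did. NKG7, itself chosen by its loops, was the only one of the 7 in this stretch, and the difference from the autosomal share was not tested.

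The genes most like the listed ones, by the number of loops over 2 Mb at their ends, were on chromosomes 10, 17 and 5. SCCPDH and its unnamed neighbour on chromosome 10 had 3 each, the most outside the stretch, with 65 to 113 contacts against 5.92 to 8.76 expected and ratios of 9.89 to 14.0. Unnamed loci on chromosomes 17 and 10 had 2 each, and CDK17, on chromosome 5, had 1 with 101 contacts, as did ELK3, which was level with it. CLDND2 and VSIG10L, with 4 each, had more than any of these, and the highest expectation at CLDND2 was 47.2. The 4 of each belonged to a single group of touching pixels, and each gene had ends in 2 adjoining bins. This order therefore counts pixels and not separate contacts. Chromosome 10 was the only other autosome with more than 2 loops over 2 Mb, and its 8 had 1.04 to 8.76 expected contacts. Chromosome 6 had none outside this stretch.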

How the data were processed

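Formaldehyde-fixed spleen chromatin was cut with DpnII and ligated, per the labels' protocols. The submitters' processing notes name HiC-Pro 3.1.0, and juicer_tools 1.9.9 wrote the loop table, per the file headers. The deposited observed contacts are raw counts per pixel of 25 kb. The expected signal of 4 neighbourhoods, in the same unit, and the q-values (FDR) are also values of the authors' caller, per the file headers, with 0.0999 as the largest FDR listed. Not given in the sources used here were the caller of the domains, the read depth, the genome build and whether replicates were pooled, so depth is unknown beyond the contacts per pixel.

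Genes came from a RefSeq table of Sscrofa11.1 without strand. Coordinates count from 1, and that the files use this build rests on their scaffold names. A gene was at an anchor if either annotated end lay in it. Pixels sharing an edge or corner on the 25 kb grid formed a group. No hypothesis test was made, since there was 1 group, no value per replicate, and members, bounds and gene lists chosen with earlier results of these data known. The genes named were the 6 members, protein-coding genes at anchors and domain edges of the stretch, those of 7 lists (92 of 127 entries matched by symbol or synonym) at an anchor there, and the 5 genes elsewhere with the most loops over 2 Mb. Other list members, the miRNA genes, CEACAM18, ZNF331, ZNF615, ZNF614, ZNF432 and ELK3 were named outside this rule, after their positions or values were seen. No sequence was analysed here. Of the genes at anchors of short loops, 1 is not named here. Counting functions were tested on simulated data. Python 3.11.15, pandas 2.3.3 and scipy 1.17.1 were used.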

Additional observations from a re-analysis of the deposited data

How the results depend on the processing

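Of 30 values under alternatives, 24 stayed within 1.5 times the count or, for medians, within a counting interval. That interval was 3.197 to 7.895 for the median ratio, which is the interval of the single pixel with 21 contacts. For the median expectation it was 5.714 to 20.09. Neither measures the spread of a median over the long loops, so no stability of the medians is read from them. The count of 24 is no measure of stability either, since the members and bounds were chosen by these loops. Widening the anchors, for example, could not take any of the 6 listed genes off one. The fall from 6 to 4 listed genes at FDR 0.05 was counted among the 24. With 1 pixel per group of touching pixels the median ratio was 3.74 in place of 5.16. Keeping only the pixel with the most contacts where pixels touch, the 18 loops of the stretch became 10, and NKG7 was no longer at an anchor. With all 4 FDR values at most 0.01, 8 loops were left, 4 of them over 2 Mb. At 0.05 the groups of touching pixels over 2 Mb fell from 5 to 3, and OSCAR and TARM1 lost their loop. Against the horizontal neighbourhood the median ratio of the long loops was 2.88 in place of 5.16, and the median expectation 21.7 in place of 11.3. Widening the stretch or lowering the limit to 1 Mb added no loop. No paired analysis was possible because there was 1 group and the tables hold no value per replicate, so no replicate could be left out. Contacts of 18 to 31 in the weakest long loops limit their ratios.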
